A study of Drosophila melanogaster with 4 samples.

Results

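The subject is a set of 845 binding regions (peaks) of the transcription factor Ribbon (Rib) that lie between genes and were listed with 1 of 2 expression drivers. Chromatin immunoprecipitation and sequencing (ChIP-seq) with an anti-GFP antibody was done on Drosophila melanogaster embryos that carried a UAS-rib-GFP transgene. The first group had the genotype fkh-GAL4::UAS-rib-GFP, the second sage-GAL4::UAS-rib-GFP, so the tagged transgene was common to both. Embryos of both groups were at stages 11 to 16, from a collection of 8 h and an ageing of 11 h, and were fixed in 1.8% formaldehyde. For each driver 3 collections were merged into 1 immunoprecipitation and 1 input library. The 2 deposited lists held 5103 peaks, 4196 of them with fkh-Gal4 and 907 with sage-Gal4.

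The 845 peaks were chosen by 4 conditions on the fkh-Gal4 list. A peak had to lie on chromosome 2, 3, 4 or X outside the histone and 5S rRNA gene arrays, and to overlap no sage-Gal4 peak. It had to miss the 1 kb on either side of both ends of each protein-coding gene, and its centre had to lie outside protein-coding gene bodies. Of the 4196 fkh-Gal4 peaks, 3031 lay on these chromosomes outside the arrays. Of these, 543 overlapped a sage-Gal4 peak and 2488 did not. The 2488 divided into 542 at gene ends, 1101 in gene bodies and the 845 between genes, which are 34.0% of them and are called fkh-only intergenic peaks here. All 845 had both edges outside gene bodies as well, which the windows at gene ends ensure. Another 124 fkh-Gal4 peaks met the position rule between genes and overlapped a sage-Gal4 peak.

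Rib combines a BTB domain, through which such proteins pair, with a Pipsqueak-type DNA-binding domain. Embryos need it to lengthen the tubes of the salivary gland and of the trachea. Both drivers take their regulatory DNA from genes of salivary gland transcription factors, the forkhead protein Fkh and the bHLH protein Sage. DNA between genes holds enhancers, and towards the centromeres and the chromosome ends of Drosophila it is rich in transposable elements and satellite repeats.

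The lists gave positions alone, with no peak height, score or replicate, so no test of a difference was possible and no value has a replicate error. Intervals are exact 95% intervals for counting error (Clopper-Pearson for shares, Poisson for densities, order statistics for medians), and neighbouring peaks are not independent. The depth of the libraries is unknown, and a site that the sage-Gal4 list lacks may still have been bound in those embryos. Since presence in one list and absence from the other chose the peaks, the difference between the drivers is given as a description. How reads that map to several places were handled is not given in the sources used here, so in repeated sequence a peak at one copy cannot be told apart from a peak at another.

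The threshold at gene ends had close cases on both sides. The nearest edges of the 3 fkh-only intergenic peaks just inside the rule were 1001, 1016 and 1028 bp from a gene end, and those of the 3 peaks just outside it 991, 989 and 980 bp. Among peaks removed for an overlap with sage-Gal4, the smallest overlaps were 10, 39 and 40 bp. The closest approach of a kept peak to a sage-Gal4 peak was 74 bp, on X (4990407 to 4990507, 101 bp wide, in the gap between CG15468 and CG12680). Next came 76 bp on 2L (21404967 to 21405125, 159 bp, between nrv3 and the histone array) and 83 bp on 2R (851748 to 851834, 87 bp, between DIP-lambda and CG46302). Most fkh-only intergenic peaks were not such near misses: 33 of 845 (3.91%, interval 2.70 to 5.44) had a sage-Gal4 peak within 1 kb. The median distance to the nearest sage-Gal4 peak was 64.06 kb, with quartiles of 8.536 and 150.175 kb. The farthest, on 3L (26314747 to 26314832), was 907405 bp away. All coordinates are on dm6, counted from 1.

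The fkh-only intergenic peaks were of ordinary width for the fkh-Gal4 list, with a long tail of wide ones. Their median width was 117 bp (interval 112 to 124), with quartiles of 88 and 191 bp and a range of 70 to 1435 bp, and together they covered 138.631 kb. The median was 111 bp for fkh-only peaks at gene ends and 116 bp for those in gene bodies. For intergenic peaks shared with sage-Gal4 it was 285.5 bp (interval 215 to 326). Over all 4196 fkh-Gal4 peaks it was 122 bp, with 12.1% at 300 bp or wider, and over all 907 sage-Gal4 peaks 102 bp. A width of 300 bp or more was reached by 99 of the 845 (11.7%, interval 9.62 to 14.1), by 4.43% of the gene-end peaks, by 11.4% of the gene-body peaks and by 47.6% of the shared intergenic peaks. Wide fkh-only intergenic peaks were commonest at chromosome ends: 31 of 74 peaks in the outermost 100 kb of the arms were 300 bp or wider (41.9%, interval 30.5 to 53.9), against 37 of 383 along the rest of the arms (9.66%).

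**Figure D1:**
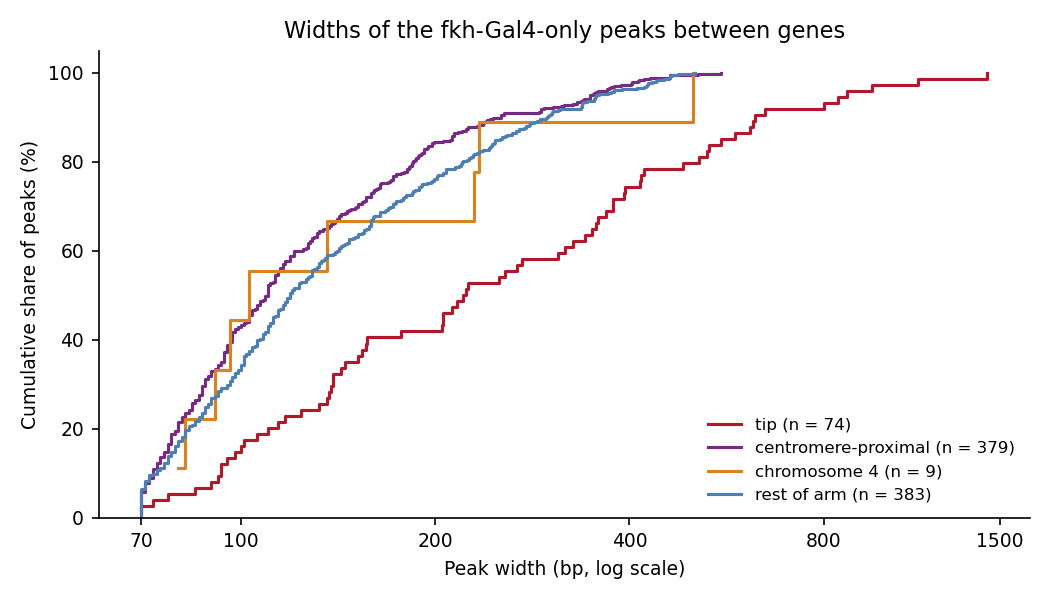
Cumulative share (%) of the fkh-only intergenic peaks by width (bp, log scale), with 1 line for each zone: the outermost 100 kb of each arm (tip), the 5 Mb nearest the centromere, chromosome 4 and the rest of the arms. The tip line lies to the right of the others, with a median of 222 bp against 110 bp for the centromere-proximal peaks and 119 bp for the rest of the arms.

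Density along the arms was set against the sequence in which such a peak could lie, which was 35.0948 Mb between genes and beyond the windows at gene ends. The mean was 24.1 fkh-only intergenic peaks per Mb of this eligible sequence (interval 22.5 to 25.8). The tips held 74 peaks, 8.76% of the set in 0.906% of the eligible sequence, or 233 per Mb (interval 183 to 292). The 5 Mb nearest the centromere of each major arm held 379 peaks, 44.9% of the set in 34.4% of the eligible sequence, or 31.4 per Mb (interval 28.3 to 34.7). Chromosome 4 outside its tip held 9 peaks, at 58.6 per Mb (interval 26.8 to 111), and the rest of the arms 383, at 17.0 per Mb (interval 15.3 to 18.8). The centromere-proximal zone held 5.72% of the fkh-only peaks at gene ends, 28.5% of those in gene bodies, 29.0% of the shared intergenic peaks and 13.6% of the sage-Gal4 list on these chromosomes. The sequence open to gene-end, gene-body and sage-Gal4 peaks differs from that of the set and was not computed. Their shares are therefore not on one footing with the 44.9%.

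Among the major arms the order was not the same in every zone. Near the centromere the density was highest on 2L (44.9 per Mb, interval 36.0 to 55.3) and lowest on X (22.8, interval 17.2 to 29.7), and the intervals of 2R (29.9), 3L (33.0) and 3R (26.9) overlapped each other. On X the centromere-proximal density was close to that of the rest of the arm, which was 20.2 per Mb (interval 15.4 to 26.0). Over the rest of the arms 2R was highest, at 22.8 per Mb (interval 18.3 to 28.1), and 3L lowest, at 14.0 (interval 11.0 to 17.5).

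**Figure D2:**
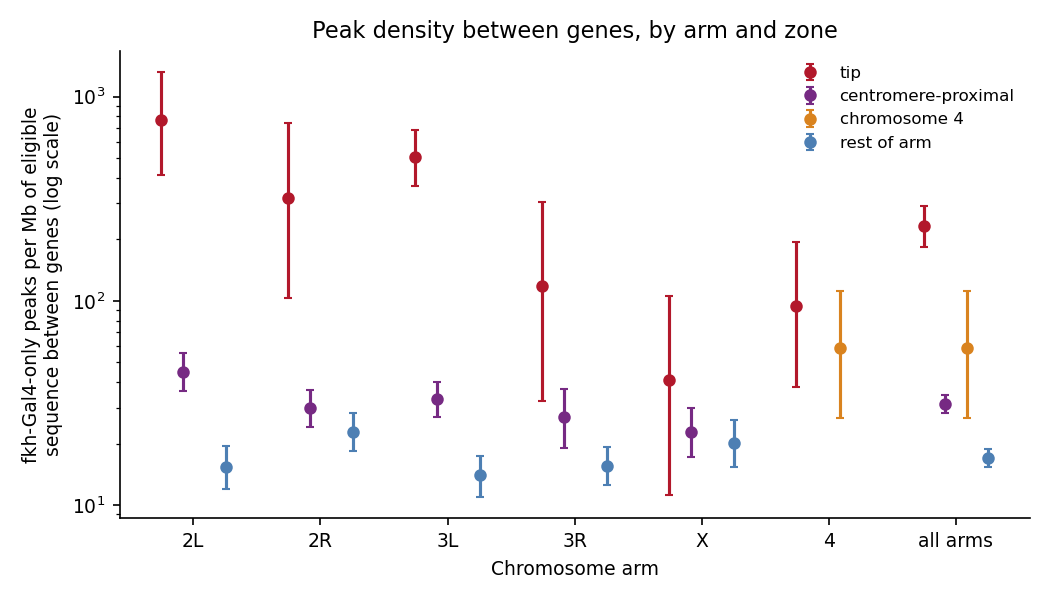
Fkh-only intergenic peaks per Mb of eligible sequence between genes (log scale) for each arm and zone. Points are densities and bars are exact 95% Poisson intervals, which cover counting error alone; the tips of 2L (773 per Mb) and 3L (509 per Mb) stand highest.

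The tip of 3L carried the largest block of fkh-only intergenic peaks. The arm end was almost tiled: 40 peaks lay in 19.75 kb (3L, 33 to 19782), before mthl8, a gene of the Methuselah family of G protein-coupled receptors. They covered 77.9% of that span, were 322.5 bp wide at the median and followed each other at a median of 456.5 bp from centre to centre. No sage-Gal4 peak and no shared peak lay in the run. It held 9 of the 12 widest peaks of the whole set, of 1435 bp (3L, 17306 to 18740), 1121 bp (2615 to 3735), 951 bp (9208 to 10158), 868 bp (15695 to 16562), 800 bp (14373 to 15172), 650 bp (12203 to 12852), 625 bp (852 to 1476), 614 bp (4033 to 4646) and 584 bp (6586 to 7169).

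The other 3 of the 12 lay at the tip of 2L, in the same kind of block. There 13 peaks filled 80.0% of 5.048 kb (2L, 34 to 5081), before l(2)gl, the tumour suppressor that sets apico-basal polarity, and the widest were 843 bp (3447 to 4289), 621 bp (883 to 1503) and 555 bp (4374 to 4928). This run was the denser of the pair, with a median step of 411.75 bp, and it too held no sage-Gal4 peak.

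The remaining tips were lighter and differed from each other. On 2R, 5 peaks of 101 to 513 bp lay between CG9380 and the arm end (25258265 to 25261512), with a sage-Gal4 peak 380 bp from the outermost. On 3R, 4 peaks of 73 to 393 bp lay beyond Map205, a microtubule-associated protein (32075484 to 32078816), the first of them 183 bp from a sage-Gal4 peak. On chromosome 4, 7 peaks lay beyond Cadps, a protein of regulated secretion, the nearest of them 242888 bp from a sage-Gal4 peak. The 4 peaks of the X tip, 90 to 177 bp wide, lay between SteXh:CG42398 and CG17636 with steps of 11134.5, 11527 and 11650 bp. Without the tips the set numbered 771, and the median width was 113 bp.

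The fkh-only intergenic peaks clustered. Of the 845, 534 (63.2%, interval 59.8 to 66.5) had another of the set within 5 kb, and 320 (37.9%) had one within 1 kb. The share within 5 kb was 91.9% at the tips, 60.4% near the centromeres and 60.3% along the rest of the arms. Counted within each set, the same share was 58.0% for fkh-only peaks in gene bodies, 17.5% for those at gene ends and 19.4% for the 124 shared intergenic peaks, and sets of different size and density are not on one footing here. The median distance from a peak centre to the nearest protein-coding gene end was 11349 bp, with quartiles of 4905.5 and 32071.5 bp. It was 32379.5 bp near the centromeres, where genes are sparse, and 5924.5 bp along the rest of the arms. The centres closest to a gene end lay at 1088 bp (X, 1522394 to 1522538, between inc and Mur2B), 1092.5 bp (2R, 6178598 to 6178669, between Cyp6w1 and CG8343) and 1093.5 bp (3L, 23553407 to 23553592, beside the Argonaute gene AGO3). The farthest lay at 469002 and 342714 bp, both before Myo81F on 3R, and at 387894 bp, beyond ATbp on X.

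Counted by gap between neighbouring protein-coding genes, the peaks were spread over 288 of the 2564 gaps that were long enough to hold one (11.2%). A single peak was found in 126 of these gaps. At the other end, 42 gaps with 5 or more held 412 peaks. Of the 288 gaps, 94 (32.6%) also held a sage-Gal4 peak, and 479 of the 845 peaks lay in gaps with none. A sage-Gal4 peak was present in 236 of all 2564 gaps (9.20%), and in 142 of the 2276 without a fkh-only intergenic peak (6.24%, interval 5.28 to 7.31). At like length the order was the same: 20.0% against 4.73% below 10 kb, 30.2% against 6.86% at 10 to 20 kb, 32.0% against 11.1% at 20 to 50 kb and 42.5% against 20.0% from 50 kb up. Gaps with a fkh-only intergenic peak had a median length of 27.8975 kb, and those without had 6.565 kb. The share of gaps with a peak went from 1.20% below 5 kb to 25.1% at 20 to 50 kb and 97.3% (36 of 37) from 100 kb up. Per Mb of eligible sequence the spread was smaller, from 14.0 in the shortest class to 34.1 in the longest.

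**Figure D3:**
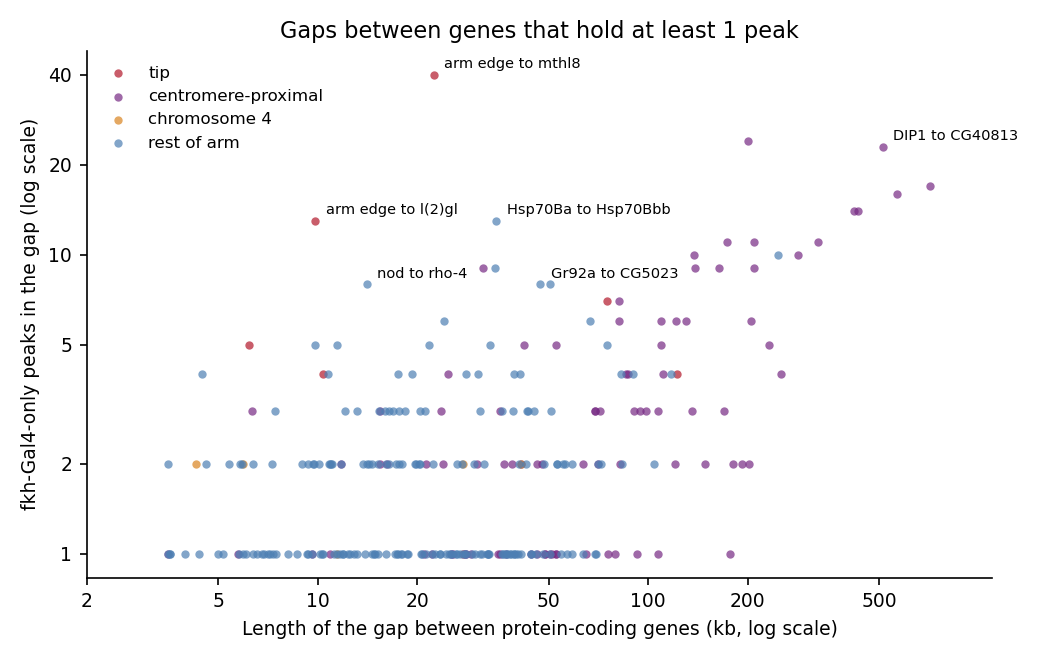
Each point is 1 of the 288 gaps between protein-coding genes that hold a fkh-only intergenic peak, by gap length (kb, log scale) and number of peaks (log scale), coloured by zone. The gap at the 3L tip, with 40 peaks in 22.427 kb, and the gap at the 2L tip, with 13 in 9.838 kb, stand far above other gaps of their length.

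The 8 gaps with the most peaks held 161 of the 845. After the 3L tip came 6 long centromere-proximal gaps. The gap from Tim23, a mitochondrial import channel, to the edge of 2L held 24 peaks in 199.878 kb, and that from DIP1 to CG40813 on X held 23 in 512.909 kb. The gap between CG42598 and CG40228 on 3L held 17, that before Myo81F on 3R 16, that between the RNA helicase gene Dbp80 and the translation factor gene eIF4B on 3L 14, and that beyond ATbp on X 14. The gap before l(2)gl, with 13, closed the list, level with the gap between Hsp70Ba and Hsp70Bbb described below. In the 6 long gaps the peaks were narrow, with medians of 97 to 121 bp, and each gap held between 0 and 2 sage-Gal4 peaks.

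The X gap beside DIP1 is where flamenco lies, a locus known in the ovary as a source of piRNAs, the small RNAs that silence transposable elements. The gene table lists it as lncRNA:flam, from 21631891 to 21790731 in a gap that runs from 21630149 to 22143057. Of the 23 peaks in this gap 8 overlapped it. The locus takes up a large part of the gap, so its length alone would give some overlap. Whether 8 of 23 is more than that was not tested. The gap between Pld and jing on 2R, which is known to contain a large germline piRNA cluster, held 10 peaks of 70 to 244 bp in 246.739 kb, along with 1 sage-Gal4 peak. Whether the fkh-only intergenic peaks meet transposable elements was not tested, since no annotation of them was used here.

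Shorter gaps along the rest of the arms also held runs of peaks. The clearest was a row on X between nod, a kinesin-like protein of meiotic chromosomes, and rho-4, a rhomboid-family protease. A row of 6 annotated pseudogenes, CR43216 to CR43211, stands there. Each is 1891 bp long, and each starts 2093 bp after the one before. Each of the 6 had a fkh-only intergenic peak at its lower-coordinate end, 189 to 252 bp wide. Counted from that end, the 6 peak centres lay at 19, 3, -11, 1.5, 13 and 2.5 bp, along a run of 11.165 kb. CR43213 and CR43211 had a second, narrower peak as well, of 76 and 79 bp, centred 570.5 and 557 bp from the same end. A seventh pseudogene beside them, CR43217, is 717 bp long and had no peak. No sage-Gal4 peak lay in the run (X, 11587180 to 11598344).

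The gap between Hsp70Ba and Hsp70Bbb on 3R, copies of the major heat shock chaperone gene, held 13 fkh-only intergenic peaks, 3 shared peaks and 5 sage-Gal4 peaks in 34.733 kb. Of these, 3 overlapped the lncRNA of the alphagamma element, a repeated unit of that locus (12475438 to 12475543, 12475613 to 12475702 and 12477001 to 12477121). The widest in the gap was 427 bp (12497685 to 12498111). Elsewhere along the arms, 9 peaks lay between bru3, an RNA-binding protein of the Bruno family, and CG43184 on 3L. Another 8 lay in 8.978 kb between the gustatory receptor gene Gr92a and CG5023 on 3R, and 8 between Tmtc2 and IA-2 on 2L.

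**Figure D4:**
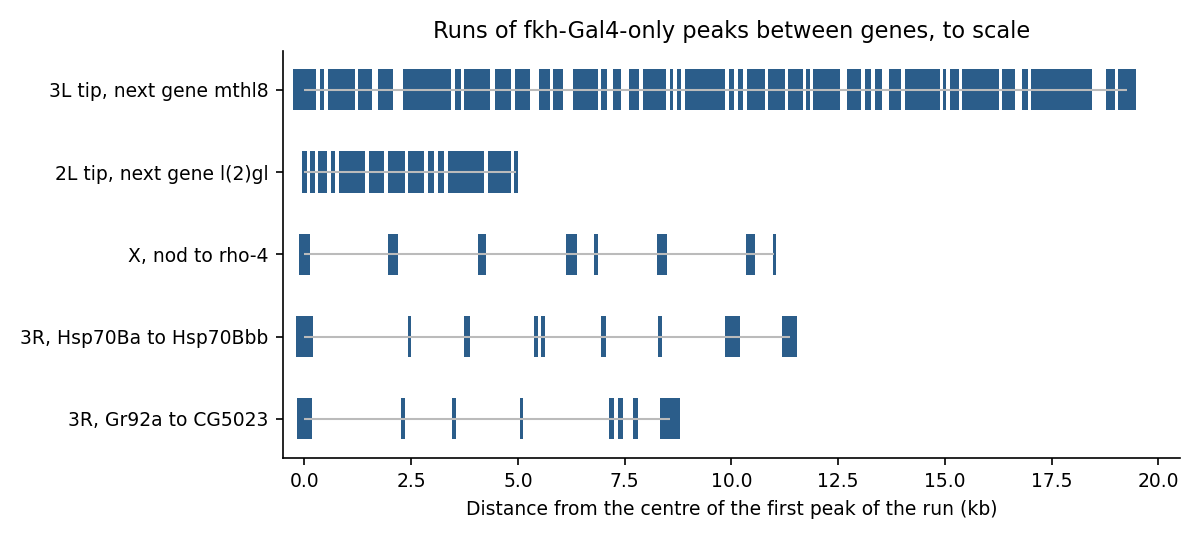
Runs of fkh-only intergenic peaks drawn to scale, with distance from the centre of the first peak (kb) on the horizontal axis and 1 line per run; each bar is a peak at its true width. The tip runs are nearly solid, and the run between nod and rho-4 shows 6 peaks of 189 to 252 bp at steps of about 1 pseudogene unit (2093 bp).

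A spacing between wide peaks recurred at separate loci. The pair counts leave out the runs of fkh-only intergenic peaks at the arm tips. Elsewhere, 110 pairs of fkh-Gal4 peaks at least 200 bp wide and up to 12 kb apart contained at least 1 fkh-only intergenic peak. Of these, 14 had their centres 8500 to 8700 bp apart (8516.5 to 8684, median 8636.25). Of the 106 other windows of 200 bp, moved in steps of 100 bp from 1 kb up, the fullest was 6900 to 7100 bp with 10 such pairs, and the median window held 1. By the same count, pairs of other fkh-Gal4 peaks numbered 48 of 186 at 8500 to 8700 bp and at most 11 in another window. The 14 pairs lay on 5 arms and all their peaks were 288 to 511 bp wide. In 11 of the 14 the partner was an intergenic peak shared with sage-Gal4, and in 3 both peaks were fkh-only. The spacing was not confined to intergenic peaks, since in 37 of those 48 other pairs both peaks lay in gene bodies. The window was picked after the spacings were seen, so these counts are a description. Whether the loci hold copies of one repeated sequence was not tested.

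Several of the widest fkh-only intergenic peaks along the rest of the arms belonged to these pairs. The 475 bp peak between CG32198 and AstC-R1, a receptor for the neuropeptide allatostatin C (3L, 18537274 to 18537748), stood 8615 bp from a shared peak of 369 bp. The 440 bp peak between CG11192 and the cell surface protein gene side-VIII (2R, 20368601 to 20369040) stood 8605.5 bp from a shared peak of 359 bp. The 442 bp peak between CG12483 and the kinase gene Pdk1 (3L, 118907 to 119348) stood 8648 bp from a shared peak of 366 bp. In the Gr92a gap both ends of the run were such a pair, fkh-only peaks of 353 bp (3R, 20156839 to 20157191) and 466 bp (20165351 to 20165816) that stood 8568.5 bp apart. The same held near the edge of 2L beyond Tim23 (23405721 to 23406010 and 23414275 to 23414785, 8664.5 bp apart). The third pair of fkh-only peaks lay between CG17684 and MFS17 on 2R (2409111 to 2409488 and 2417748 to 2418122, 8635.5 bp apart). The widest fkh-only intergenic peak of the rest of the arms, of 506 bp, lay between sbb, a nuclear regulator of development, and the immune peptide gene BomT1 (2R, 18370699 to 18371204) and was in no such pair.

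**Figure D5:**
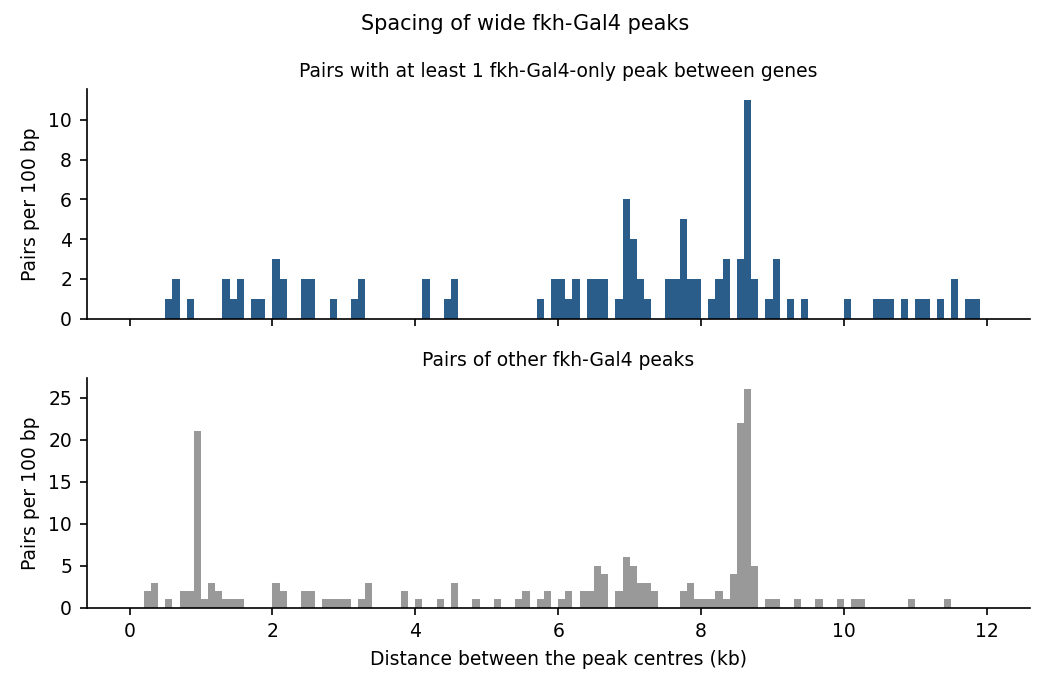
Number of pairs of wide fkh-Gal4 peaks (200 bp or more) per 100 bp of distance between their centres (kb), without the runs at the arm tips. The upper panel counts pairs with at least 1 fkh-only intergenic peak and the lower panel other fkh-Gal4 pairs; the 8500 to 8700 bp window holds 14 of 110 and 48 of 186 pairs.

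Annotated genes of types other than protein-coding were met by 59 fkh-only intergenic peaks (6.98%, interval 5.36 to 8.91), which overlapped 44 such genes. The share of the eligible sequence that such genes cover was not computed, so the 6.98% stands without a background. Long noncoding RNA genes took 39 of the peaks and pseudogenes 15. Beside the histone array on 2L, 3 peaks overlapped the histone pseudogenes His-Psi:CR31616, His-Psi:CR31615 and His-Psi:CR31754 on the side of nrv3. They lay 102, 76 and 793 bp from a sage-Gal4 peak, in a gap that also held 3 shared peaks and 3 sage-Gal4 peaks. On the other side of the array 2 peaks overlapped His-Psi:CR31614, of 402 bp (21542905 to 21543306) and 85 bp. Among small RNA genes the peaks met 2 of 269 snoRNA genes, the neighbouring copies snoRNA:U3:54Aa (2R, peak 17143548 to 17143629) and snoRNA:U3:54Ab (peak 17145716 to 17145825), whose RNA acts in rRNA processing. They met 2 of 290 tRNA genes, tRNA:Arg-ACG-1-5 (2R, peak 6178598 to 6178669) and tRNA:Leu-CAG-1-4 (3L, peak 8060704 to 8060773). Both totals count all such genes on these chromosomes, also any that lie where the rule allows no peak. In the Hox clusters, single peaks overlapped lncRNA:CR42651 between Dfd and Scr, lncRNA:CR45559 between ftz and Antp and lncRNA:iab8 beside Abd-B.

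Genes that flank the gaps were read against the background of all 3938 protein-coding genes at the edge of a gap that could hold such a peak, of which 516 (13.1%) had one in it. Gaps beside the listed homeodomain patterning genes, which specify position in the embryo, stood low in density, though not in share of genes. Of these genes 7 of 54 flanked a peak (13.0%, interval 5.37 to 24.9). The density was 4.22 peaks per Mb of eligible sequence (interval 1.37 to 9.85) against 24.1 over all gaps. Those 7 shared 5 peaks, 2 of them between caup and mirr, 1 between Dfd and Scr, 1 between ftz and Antp and 1 beside Abd-B. The density depends on the choice of genes. The POU-domain genes nub and vvl, which carry a homeodomain too and had 4 peaks each, were counted in other lists. The list of zinc finger and nuclear receptor genes also took in other factors, among them the POU-domain gene nub and the Sox genes Sox21b and D. It had 9 of 50 genes with a peak (18%) at 8.56 per Mb (interval 4.42 to 14.9). Its first were nub with 4, disco with 2, one of them 452 bp wide, sna with 1 of 277 bp and Eip75B with 1 of 174 bp. The T-box, bHLH and Fox factors had 1 of 33 (3.03%) at 3.63 per Mb, which was trh. Along the rest of the arms, where all gaps together had 17.0 per Mb, the 3 groups had 4.28, 8.98 and 3.76.

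Signalling ligands and receptors had 4 of 31 genes with a peak (12.9%) at 9.26 per Mb: the Wnt receptor genes fz4 with 2 and fz with 1, the FGF receptor gene htl with 2 and the ligand gene Wnt2 with 2. Neuronal wiring and adhesion genes had 16 of 73 (21.9%, interval 13.1 to 33.1) at 12.04 per Mb (interval 7.63 to 18.1). Their first were kek2, a leucine-rich repeat membrane protein, with 3 peaks, klg and Nlg3, adhesion proteins, with 2 each, and beat-IIIb with 2. Chemosensory receptor genes had 13 of 78 (16.7%) at 21.6 per Mb, with Gr92a at 8, Ir41a at 3 and Or67a and Ir67a facing the same 2. None of 45 cuticle protein genes flanked a peak (interval 0 to 7.87%), and their gaps were short, with a median of 5.0475 kb. Cytoplasmic ribosomal protein genes had 6 of 21 (28.6%, interval 11.3 to 52.2) at 37.3 per Mb, and RpL5 with 9 peaks and RpL15 with 5 both stood in long centromere-proximal gaps. RpL13 had 3 and RpL10 2. Along the rest of the arms, against 17.0 per Mb for all gaps, the density was 9.26 for signalling genes (interval 3.72 to 19.1) and 11.4 for neuronal wiring genes (interval 7.05 to 17.4). It was 23.6 for chemosensory genes (interval 15.2 to 34.8) and 28.9 for ribosomal protein genes (interval 10.6 to 62.9, 3 of 16 genes). Each of these intervals takes in the 17.0 of all gaps. The chemosensory value was thus below that of all gaps over the whole set and above it along the rest of the arms, with the value of all gaps inside its interval both times.

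The lists closest to the tissues in which Rib acts were small. Of 17 salivary gland genes at such gaps 2 flanked a fkh-only intergenic peak (11.8%, interval 1.46 to 36.4). The density was 6.91 per Mb (interval 1.43 to 20.2) against 24.1 over all gaps. Along the rest of the arms it was 7.33 per Mb (interval 1.51 to 21.4), and the 17.0 of all gaps there lay inside that interval. The 2 genes were trh, a bHLH-PAS factor of tracheal and salivary duct cells, and Scr, the Hox gene that specifies the gland. Of 15 tracheal genes 3 did (20.0%, interval 4.33 to 48.1), at 12.5 per Mb (interval 5.04 to 25.8): vvl, a POU-domain factor, with 4 peaks in a gap of 117.057 kb, trh with 2 and knrl, a nuclear receptor, with 1. The 2 peaks of trh lay within 3L, 402910 to 409673, and the wider of them was 242 bp. Among 13 BTB and Pipsqueak-domain genes, the family of Rib itself, 4 flanked a peak (30.8%, interval 9.09 to 61.4), as neighbours around 2 peaks, 1 between bab1 and bab2 and 1 of 101 bp between lola and psq. Their share of genes was thus above the 13.1% of all genes, and their density, 9.82 per Mb (interval 1.19 to 35.5), below that of all gaps, as for the tracheal genes, with intervals that take in both background values. The gaps of the tracheal and the BTB list all lay along the rest of the arms, where the density over all gaps was 17.0 per Mb. The gaps beside rib, fkh, sage and lolal, which encodes a small BTB protein, held no fkh-only intergenic peak. The nearest were 434.684 kb from rib, 174.024 kb from fkh, 19.623 kb from sage and 200.925 kb from lolal.

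Chromosome 4, a small and largely heterochromatic chromosome, held 16 of the 845 peaks (1.89%, interval 1.09 to 3.06) at 70.3 per Mb (interval 40.2 to 114). Of the 9 outside its tip, 2 lay between JYalpha and PlexB, an axon guidance receptor gene, 2 between CG31998 and the adaptor gene Crk, 2 between CaMKI and Taf3 and 2 between dati and lgs. The widest, of 501 bp (797464 to 797964), lay alone between the Mediator subunit gene MED26 and Sox102F. The centres of the pairs beside PlexB, Crk and Taf3 were 933, 880.5 and 835 bp apart.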

How the data were processed

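The deposited peak lists, 1 per driver, give a chromosome, a start and an end in 3 columns and hold no score. The submitters' processing notes name BWA, MACS2 2.1.0.20140616 and the build dm6. The sources used here give neither the peak threshold nor the role of the inputs in peak calling, and the reads of the input libraries were not used here.

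Starts were converted to a count from 1. Genes came from a RefSeq table of the same assembly, without strand. Arm edges are the last bases seen in the lists or that table. A gap could hold a peak where its eligible part was at least as long as the narrowest fkh-Gal4 peak, 70 bp. Classes and counts were computed with Python 3.11.15, numpy 2.4.6, pandas 2.3.3 and scipy 1.17.1, and the class rule was tested on simulated data.

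The set and the 11 gene lists were chosen with earlier results of these data known. The zones, the limit of 300 bp for wide peaks, runs of at least 6 peaks with steps of up to 5 kb and the spacing window were set after the positions were seen. Of the names asked for in the lists, 6 matched no gene. Named were the 12 widest peaks and the 8 fullest gaps, up to 4 genes per list (most peaks first, then the widest), peaks at small RNA genes, the peaks nearest to and farthest from gene ends, the peaks nearest to sage-Gal4 peaks, and rib, fkh, sage and lolal. Other loci were chosen after their values were seen.

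A study of base composition, repeats and motifs was planned. It could not be run on positions without a genome sequence.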

Additional observations from a re-analysis of the deposited data

How the results depend on the processing

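Each of 6 values (the number of peaks, their median width, the share on chromosome 4, the share with another within 5 kb, the median distance to a gene end and the share of flanking genes) was recomputed under 9 other settings and under 2 more chosen after seeing the data. Of these values, 49 stayed within the interval of the reported one, or within 1.5 times for the number. Sage-Gal4 peaks extended by 1 kb, the major arms alone and leaving out the tips moved none. The major arms alone give no share for chromosome 4. The whole-peak rule could move none, so its values among the 49 are no check. A peak that reaches into a gene body from outside covers a gene end and was already left out. The share of flanking genes was 10.9% with windows of 500 bp, 15.1% with windows of 2 kb and 11.4% with genes of every type, and the median distance was 13763.5 bp with 2 kb. The median width was 125 bp with a reciprocal overlap of 50%. Merging fkh-Gal4 peaks within 500 bp gave a median width of 126.5 bp and 47.2% within 5 kb, since the merge joins close neighbours. Keeping the peaks of at least the list's median width, by its construction, left 398 peaks with a median width of 198.5 bp, 42.2% within 5 kb and 8.89% of flanking genes. Without the centromere-proximal zone, 466 peaks remained, with a median width of 129 bp, a median distance of 6407.5 bp, 3.43% on chromosome 4 and 11.1% of flanking genes.

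No paired analysis was possible because each driver has 1 merged list. Depth is unknown, so how many weaker sites each list misses cannot be told.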

Other observations

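A second spacing recurred among wide fkh-Gal4 peaks, again counted without the runs at the arm tips. Pairs with at least 1 fkh-only intergenic peak numbered 10 at 6900 to 7100 bp (6937.5 to 7073.5, on 4 arms), and in 4 of them the other peak was shared with sage-Gal4. Pairs of other fkh-Gal4 peaks numbered 11 in that window. At 900 to 1000 bp the other fkh-Gal4 peaks had 21 pairs, 19 of them with both peaks shared with sage-Gal4. No counted pair there contained a fkh-only intergenic peak. The tip runs, which were not counted, do hold such pairs: in the largest run, peaks of 350 and 1121 bp stood 981.5 bp apart. These windows were picked after the spacings were seen.

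On X, 6 centromere-proximal peaks between Cyp6t1 and GCS2alpha, 104 to 463 bp wide with a median of 328 bp, lay in 15.434 kb with no sage-Gal4 peak in the gap. They formed 3 pairs, with centres 628, 803 and 822 bp apart.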
